A study of Mus musculus with 59 samples.

Results

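The demethylase genes described here encode enzymes that take methyl groups off lysine 9 or lysine 27 of histone H3, and their transcripts were followed in single mouse epiblasts. The members are Kdm1a, Kdm3a, Kdm3b, Kdm4a, Kdm4b, Kdm4c, Phf8, Kdm6a and Kdm6b. They were taken by symbol, and each gene was represented by the transcript with the highest mean raw count, so that 9 of 22119 genes with a listed transcript were described. All 9 had a transcript in the count files, and all 9 passed the filter on low counts in every comparison.

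The epiblast is the pluripotent tissue from which the embryo proper arises. RNA was measured in 14 epiblasts dissected at E6.25, before gastrulation, on a mixed background, and 750 pg of RNA from each was amplified before sequencing. In the Ehmt2 cross, 4 epiblasts lacked G9a (Ehmt2-/-), the enzyme that dimethylates H3K9, and 4 were controls. In the other, the Ezh2 cross, 3 epiblasts lacked EZH2 (Ezh2-/-), the enzyme that trimethylates H3K27, and 3 were controls. Controls were labelled +/+ for the gene of their cross, while the study's methods allow +/+ or +/- embryos. The - alleles came from intercrosses of +/- parents and were present in every cell of the embryo, placenta precursors included. The Ehmt2 line also carried a green fluorescent Pou5f1 reporter (ΔPE-Pou5f1-EGFP, GGOF). Whole epiblasts were sequenced, so fewer cells of a type and less RNA per cell cannot be told apart.

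Lysine methylation on histone H3 is written by methyltransferases and removed by 2 kinds of enzyme. KDM1A, also called LSD1, oxidises the methylated amine with the help of FAD. The other enzymes carry a JmjC domain, which uses iron, oxygen and 2-oxoglutarate. H3K9 methylation marks silent chromatin in gene bodies and repeats, and H3K27 trimethylation marks repressed developmental genes. An enzyme of this family opposes the mark that G9a or EZH2 lays down, and its transcript level was compared here between epiblasts with and without those writers.

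Total counts over all transcripts ranged from 30161171 to 78951344 per epiblast. A read that fits several isoforms was counted for each of them, so totals over the highest transcript of each gene were lower, at 12486142 to 28414902. Levels are given as CPM, the count relative to the library total, scaled over the 14 epiblasts by edgeR's TMM factors. The deleted genes followed their labels. Ehmt2 was at 10.5 to 34.1 CPM in the 4 controls of its cross and at 3.29 to 9.79 CPM in the 4 knockouts (log2 fold change -1.63, edgeR adjusted p = 0.00452). Ezh2 was at 51.6 to 108 CPM in 3 controls and at 11.4 to 16.0 CPM in 3 knockouts (log2 fold change -2.52, edgeR adjusted p = 0.0160).

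The summed level of 8 epiblast markers (Pou5f1, Sox2, Nanog, Otx2, Fgf5, Utf1, Dnmt3b and Pou3f1) was 1451 to 2784 CPM over the 14 epiblasts, and none of the markers was at 0 in all libraries of a group. It was 2419 to 2784 CPM in Ehmt2 controls and 1451 to 2201 CPM in Ehmt2-/- epiblasts, without overlap. None of the 8 was called there by edgeR, 4 were lower at an unadjusted p under 0.05, and DESeq2 called Fgf5, Dnmt3b and Pou5f1 lower. DESeq2 called many more transcripts than edgeR in each cross, with the counts given in the section on processing. Some libraries stood apart. Replicate 4 of both Ehmt2 groups differed from the other replicates of its group with a chi-square of 156 to 206 for each degree of freedom, and all other pairs within a group gave 17.7 to 47.6. This measure uses raw counts, so depth enters it. Control 4 and knockout 4 had total counts of 71639359 and 78951344, against 32431296 to 45007990 in the other epiblasts of that cross. Both replicate 4 epiblasts form a comparison set of their own in the fits, and values without them are given below. The summed level of 8 extraembryonic ectoderm markers was 23.3, 125, 63.7 and 41.9 CPM in Ehmt2 controls and 231, 80.2, 103 and 17.1 CPM in Ehmt2-/- epiblasts, so that control 2 lay above knockouts 2 and 3. Elf5 alone was at 60.9, 5.87 and 12.3 CPM in knockouts 1 to 3, at 0 in knockout 4, and at most 0.535 CPM in the 4 controls. Elf5 and Tfap2c, of the 7 such markers tested, were called higher in this cross by edgeR, and 5 of 7 were higher at an unadjusted p under 0.05. In the Ezh2 cross none of the 6 tested was called by edgeR or DESeq2, 3 were higher at an unadjusted p under 0.05 (Hand1, Tfap2c and Esx1), and the median log2 fold change was 1.22. Their summed level there was 63.9 to 96.2 CPM in controls and 68.9 to 147 CPM in knockouts. Among all transcripts at an unadjusted p under 0.05, 5.61% were lower and 6.15% higher in the Ehmt2 cross. In the Ezh2 cross 2.97% were lower and 4.05% higher. The summed level of 9 visceral endoderm markers was 387 CPM in Ezh2 control 2 and 846 CPM in Ezh2-/- replicate 1, against 0.732 to 32.2 CPM in the other epiblasts. The summed level of 6 maternal decidua markers stayed between 3.03 and 33.8 CPM. The part of these other cell types in the results below was not tested. Some fits below hold the mean log2 level of the extraembryonic ectoderm markers. That level was 0.505 to 0.923 in Ehmt2 controls 1 to 3 and 2.31 to 3.29 in knockouts 1 to 3. It was 0.071 in control 4 and -0.24 in knockout 4. In replicates 1 to 3 of that cross it therefore cannot be told apart from the genotype, and those fits cannot separate them.

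Levels were first ordered in the 7 control epiblasts, per kilobase of transcript so that genes of different length could be compared. Kdm1a stood highest, with a median of 27 CPM per kb and a range of 25.8 to 30.7. Kdm6a (median 13.3, range 8.77 to 16.4 CPM per kb) and Kdm3b (median 13.1, range 12.0 to 13.9) followed, and Kdm6a exceeded Kdm3b in 3 of 7 controls. Those 2 neighbours therefore did not differ beyond their spread over the 7 controls. The controls include epiblasts with and without Y-linked RNA, with which the level of Kdm6a ran (below), and its range spans both. Kdm4c had a median of 11.2 CPM per kb (range 8.64 to 14.1) and overlapped Kdm3b, while Kdm3a at 7.77 CPM per kb (range 5.98 to 9.53) overlapped Kdm4c but lay below it in each of the 7 controls. Phf8 (median 4.62 CPM per kb), Kdm6b (4.12) and Kdm4a (3.76) overlapped one another and did not overlap Kdm3a. Kdm4b was lowest, at a median of 0.887 CPM per kb and a range of 0.632 to 2.36, below Kdm4a in all 7 controls and without overlap. The order therefore had 3 clear steps, after Kdm1a, after Kdm3a and before Kdm4b.

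**Figure D1:**
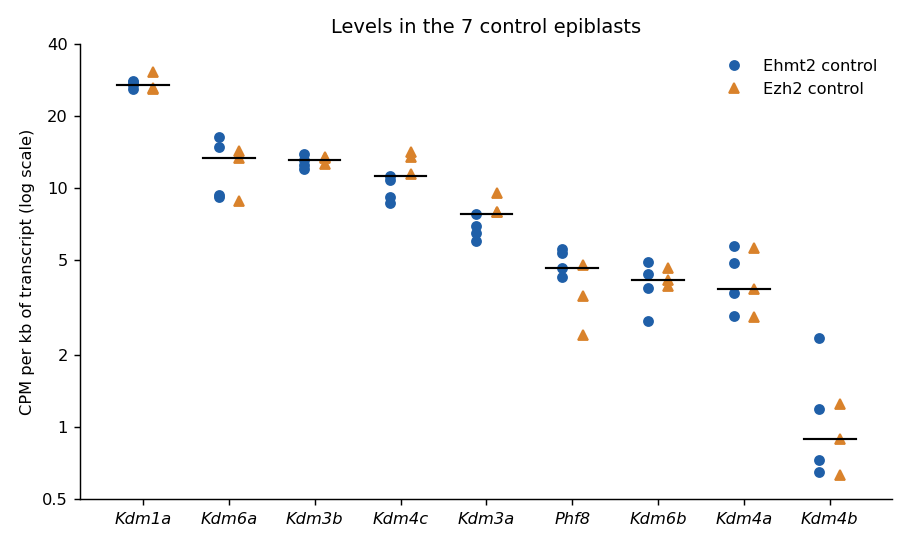
CPM per kilobase of transcript (log axis) of the 9 demethylase transcripts in the 7 control epiblasts, with 1 point per epiblast (circles, 4 Ehmt2 controls; triangles, 3 Ezh2 controls) and a line at the median. Kdm1a has a median of 27 and Kdm4b of 0.887 CPM per kb, and both stand clear of their neighbours.

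The comparison of knockout with control addresses whether transcripts of the erasers change when a writer of the opposing mark is lost. None of the 9 was called in the Ehmt2 cross at an adjusted p under 0.05 by edgeR or by DESeq2, where 0.664% of 49710 transcripts were called by edgeR. At an unadjusted p under 0.05, 3 of 9 were lower and 0 were higher (Kdm3a, Kdm4b and Kdm3b), against 5.61% of all transcripts lower and 6.15% higher. Among genes represented by their highest transcript, 6.84% were lower. Leaving out 1 epiblast gave 1 to 3 such members, with 1 (Kdm3a) without knockout 1 and 2 without control 1, control 2 or knockout 2. The median log2 fold change of the 9 was -0.26, and that of all transcripts tested was -0.01.

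None of the 9 was called in the Ezh2 cross by edgeR or by DESeq2 either. There 0.0118% of 50855 transcripts were called by edgeR, 6 in all, each an isoform of Ezh2. At an unadjusted p under 0.05, 4 of 9 were lower and 0 higher (Kdm3a, Kdm6a, Kdm6b and Kdm1a), against 2.97% lower and 4.05% higher among all transcripts, and 3.37% lower among genes by their highest transcript. The median log2 fold change of the 9 was -0.30, against 0.01 over all transcripts. In 5 of 9 members all 3 knockouts lay below all 3 controls (Kdm1a, Kdm3a, Kdm4c, Kdm6a and Kdm6b), which was the case for 6.67% of all transcripts and for 6.54% of genes by their highest transcript. Each of these 5 had the smallest p that an exact permutation test of 3 against 3 allows, 0.1. In the Ehmt2 cross 1 of 9 had all knockouts below all controls (Kdm3b), against 2.52% of all transcripts and 2.62% of genes by their highest transcript.

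**Figure D2:**
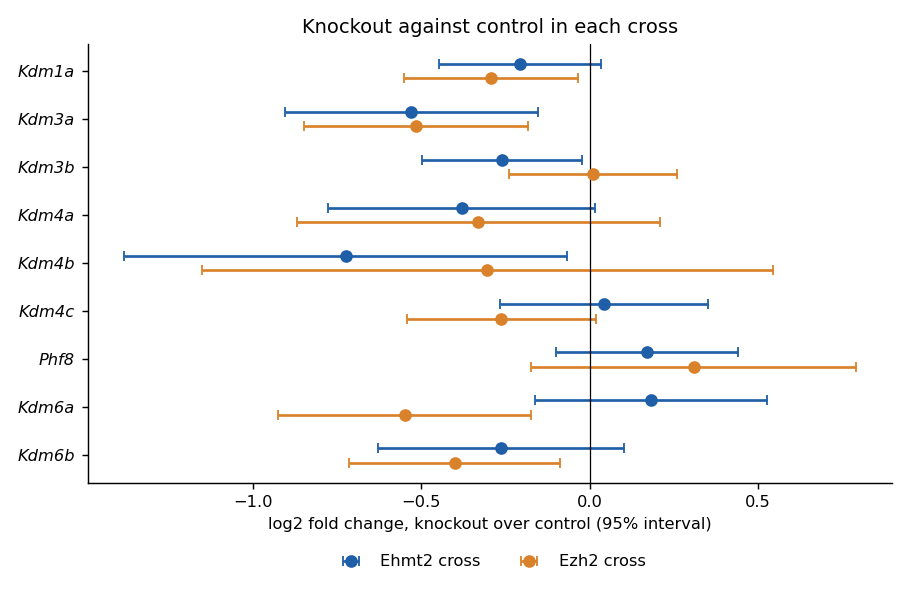
Log2 fold change of knockout over control for the 9 demethylase transcripts in the Ehmt2 cross (blue, 4 against 4 epiblasts) and the Ezh2 cross (orange, 3 against 3), as fitted by edgeR, with 95% intervals for a single transcript. The points run from -0.73 (Kdm4b, Ehmt2 cross) to 0.31 (Phf8, Ezh2 cross), and none passed the threshold after adjustment over all transcripts.

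KDM1A removes methyl groups from H3K4 and H3K9 as part of corepressor complexes with RCOR and HDAC proteins. Its gene lies on chr4:136550544-136602687, minus strand (GRCm38, as are all positions here). Kdm1a was at 84.9, 78.3, 83.8 and 81.8 CPM in the Ehmt2 controls, listed by replicate number here and below, and at 63.5, 68.3, 66.7 and 88.3 CPM in the Ehmt2-/- epiblasts. Knockouts 1 to 3 lay below every control and knockout 4 above every control. This gave a log2 fold change of -0.21 ± 0.11 (SE, edgeR adjusted p = 0.503), and without both replicate 4 epiblasts it was -0.32 ± 0.10 (edgeR adjusted p = 0.213). In a fit that also held the mean log2 level of the extraembryonic ectoderm markers, it was 0.03 ± 0.14. The Ezh2 controls were at 92.9, 79.6 and 78.3 CPM and the knockouts at 70.7, 65.3 and 68.3 CPM, without overlap. Their log2 fold change was -0.29 ± 0.12 (edgeR adjusted p = 0.663).

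KDM3A and KDM3B are JmjC enzymes that remove mono- and dimethylation from H3K9, the mark G9a lays down. Kdm3a lies on chr6:71588972-71632905, minus strand. Its levels were 31.1, 37.4, 28.8 and 33.3 CPM in the Ehmt2 controls against 24.7, 19.6, 16.5 and 31.3 CPM in the Ehmt2-/- epiblasts. Knockouts 1 to 3 were below the lowest control, and knockout 4 lay within the range of the controls, just under control 4. Kdm3a had a log2 fold change of -0.53 ± 0.17 (edgeR adjusted p = 0.238). Without the replicate 4 pair it was -0.68 ± 0.18, and with the extraembryonic ectoderm level in the fit it was -0.39 ± 0.26. When Ezh2 was deleted, Kdm3a was at 45.9, 38.0 and 38.4 CPM in controls and at 26.2, 33.1 and 26.2 CPM in Ezh2-/- epiblasts. The groups did not overlap, and the log2 fold change was -0.52 ± 0.15 (edgeR adjusted p = 0.538). The 2 effects differed by -0.01 on the log2 scale, with a 95% interval of -0.53 to 0.50.

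Kdm3b is the close relative of Kdm3a. Its levels were 83.2, 79.5, 88.3 and 76.2 CPM in Ehmt2 controls and 61.3, 65.8, 70.3 and 75.8 CPM in knockouts. Every knockout was below every control, though knockout 4 and control 4 were nearly level. The exact permutation test gave p = 0.0286, the smallest that 4 against 4 allows, and the log2 fold change was -0.26 ± 0.11 (edgeR adjusted p = 0.380). With labels exchanged only within replicates 1 to 3 and within the replicate 4 pair, the exact p was 0.05, the smallest that those 40 splits allow. Kdm3a and Phf8 reached the same exact p there, Phf8 with higher levels in knockouts. With the extraembryonic ectoderm level in the fit the value was -0.06 ± 0.15. Ezh2 controls (85.9, 84.5 and 80.1 CPM) and knockouts (76.7, 84.7 and 90.4 CPM) overlapped, with a log2 fold change of 0.01 ± 0.11. The difference between the crosses was -0.27 on the log2 scale, with a 95% interval of -0.59 to 0.05.

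KDM3A is known as a target of the hypoxia factor HIF1, and its promoter is shown because 12 other hypoxia targets were listed beside it. The 250 bases before its RefSeq start, chr6:71632918-71633167, minus strand, build GRCm38.p6, read as follows, with the HIF1 core motif in capitals. The motif was searched as ACGTG and GCGTG on both strands. ACGTG is also the inner part of the E-box CACGTG.
Kdm3a: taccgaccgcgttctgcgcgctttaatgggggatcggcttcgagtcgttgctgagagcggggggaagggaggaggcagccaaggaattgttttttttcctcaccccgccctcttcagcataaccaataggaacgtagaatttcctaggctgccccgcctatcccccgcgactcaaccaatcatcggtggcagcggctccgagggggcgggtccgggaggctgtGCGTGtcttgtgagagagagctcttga
The single match stood 27 bases before the start. Of the 6 members with a promoter in the table, 4 held a match (Kdm3a, Kdm4c, Phf8 and Kdm6a), and so did 38.6% of 32851 RefSeq promoters of the same length. The 6 promoters held 12 to 21 CpG pairs each, against a median of 6 over all promoters. Both forms of the motif contain a CpG, so the share of members with a match and that of all promoters are not on equal terms.

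Among the 12 hypoxia targets, 11 were tested in the Ezh2 cross, and 6 were lower and 0 higher at an unadjusted p under 0.05. Among all transcripts 2.97% were lower and 4.05% higher, and none of the 11 was called by edgeR. The median log2 fold change of the 11 was -0.65. Slc2a1, Bnip3 and Egln1 were called by DESeq2, which called many more transcripts than edgeR in each cross (counts in the section on processing). Slc2a1, the main glucose transporter, was at 352, 281 and 292 CPM in Ezh2 controls and at 178, 207 and 203 CPM in knockouts, without overlap (log2 fold change -0.65 ± 0.12, edgeR adjusted p = 0.231). Bnip3, which acts in removal of mitochondria, was at 68.8, 48.4 and 35.4 CPM in controls and at 24.3, 23.1 and 15.5 CPM in knockouts (log2 fold change -1.28 ± 0.25, edgeR adjusted p = 0.310). Pfkfb3, a regulator of glycolysis, was at 48.0, 25.6 and 9.53 CPM in controls and at 9.20, 9.79 and 8.97 CPM in knockouts. Control 3 lay within the range of the knockouts, and the log2 fold change was -1.57 ± 0.44. Egln1, the oxygen sensor that marks HIF for breakdown, had a value of -0.85 ± 0.25. In the Ehmt2 cross all 12 were tested, 2 were lower and 1 higher at an unadjusted p under 0.05, and none was called by edgeR, while DESeq2 called Ldha and Bnip3. Ldha, which makes lactate from pyruvate, had a log2 fold change of -0.50 ± 0.13, Bnip3 of -0.91 ± 0.28 and Ddit4, an inhibitor of mTOR signalling, of 0.86 ± 0.33. The median there was -0.21, and 5.61% of all transcripts were lower and 6.15% higher at an unadjusted p under 0.05. A part of hypoxia in the level of Kdm3a was not tested.

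KDM4A, KDM4B and KDM4C remove di- and trimethylation from H3K9 and also act on H3K36. Kdm4a (chr4:118136957-118180043, minus strand) varied widely within groups. It was at 17.0, 13.6, 22.5 and 26.5 CPM in Ehmt2 controls and at 12.9, 11.5, 15.6 and 21.6 CPM in Ehmt2-/- epiblasts. The groups overlapped, and replicate 4 was highest in both. The fitted log2 fold change was -0.38 ± 0.18 (edgeR adjusted p = 0.447). The Ezh2 controls were at 13.4, 17.5 and 26.1 CPM and the knockouts at 12.6, 15.6 and 17.1 CPM, again with overlap (log2 fold change -0.33 ± 0.24, edgeR adjusted p = 0.842). Leaving out 1 epiblast moved this value between -0.53 (without control 1) and -0.035 (without control 3).

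Kdm4b (chr17:56326074-56402864, plus strand) was the least abundant, with 64 to 575 counts per epiblast. Its levels were 2.96, 5.45, 3.34 and 10.8 CPM in Ehmt2 controls and 2.55, 2.98, 3.00 and 3.83 CPM in knockouts. Control 4 stood far above the other controls, and the knockouts overlapped controls 1 and 3. The log2 fold change of -0.73 ± 0.30 was the largest of the 9 in this cross (edgeR adjusted p = 0.377), and without the replicate 4 pair it was -0.47 ± 0.32. Kdm4b in the Ezh2 cross was at 4.06, 5.71 and 2.89 CPM in controls and at 1.99, 3.51 and 4.72 CPM in knockouts, with overlap. There the log2 fold change was -0.30 ± 0.38, and its 95% interval of -1.15 to 0.55 was the widest of the 9. With 1 epiblast left out the value lay between -0.62 (without knockout 3) and -0.025 (without control 2).

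Kdm4c (chr4:74251936-74405860, plus strand) was at 45.2, 38.3, 47.2 and 36.3 CPM in Ehmt2 controls and at 43.9, 46.9, 34.6 and 46.1 CPM in knockouts. The groups overlapped fully, with a log2 fold change of 0.04 ± 0.14, and the sign turned with the replicate 4 pair left out (-0.06 ± 0.15). The Ezh2 controls (56.4, 48.1 and 59.1 CPM) lay above the knockouts (43.9, 44.5 and 47.8 CPM), and the gap was narrow (47.8 against 48.1 CPM). Kdm4c had a log2 fold change of -0.26 ± 0.13 there (edgeR adjusted p = 0.735). The difference between the crosses was 0.31 on the log2 scale, with a 95% interval of -0.11 to 0.72.

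PHF8 binds trimethylated H3K4 through its PHD finger and removes mono- and dimethylation from H3K9. Its gene is X-linked (chrX:151520672-151633857, plus strand). Phf8 was at 35.2, 29.4, 34.0 and 27.02 CPM in Ehmt2 controls and at 41.8, 35.5, 36.0 and 28.3 CPM in Ehmt2-/- epiblasts. Knockouts 1 to 3 lay above every control, and knockout 4 was within their range. The log2 fold change was 0.17 ± 0.12 (edgeR adjusted p = 0.647). Ezh2 controls were at 30.2, 22.4 and 15.5 CPM and the knockouts at 26.4, 27.8 and 30.1 CPM, and control 3 had the lowest level of the 14 epiblasts. Phf8 had a log2 fold change of 0.31 ± 0.22 there (edgeR adjusted p = 0.832), which was 0.093 without control 3 and 0.57 without control 1.

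**Figure D3:**
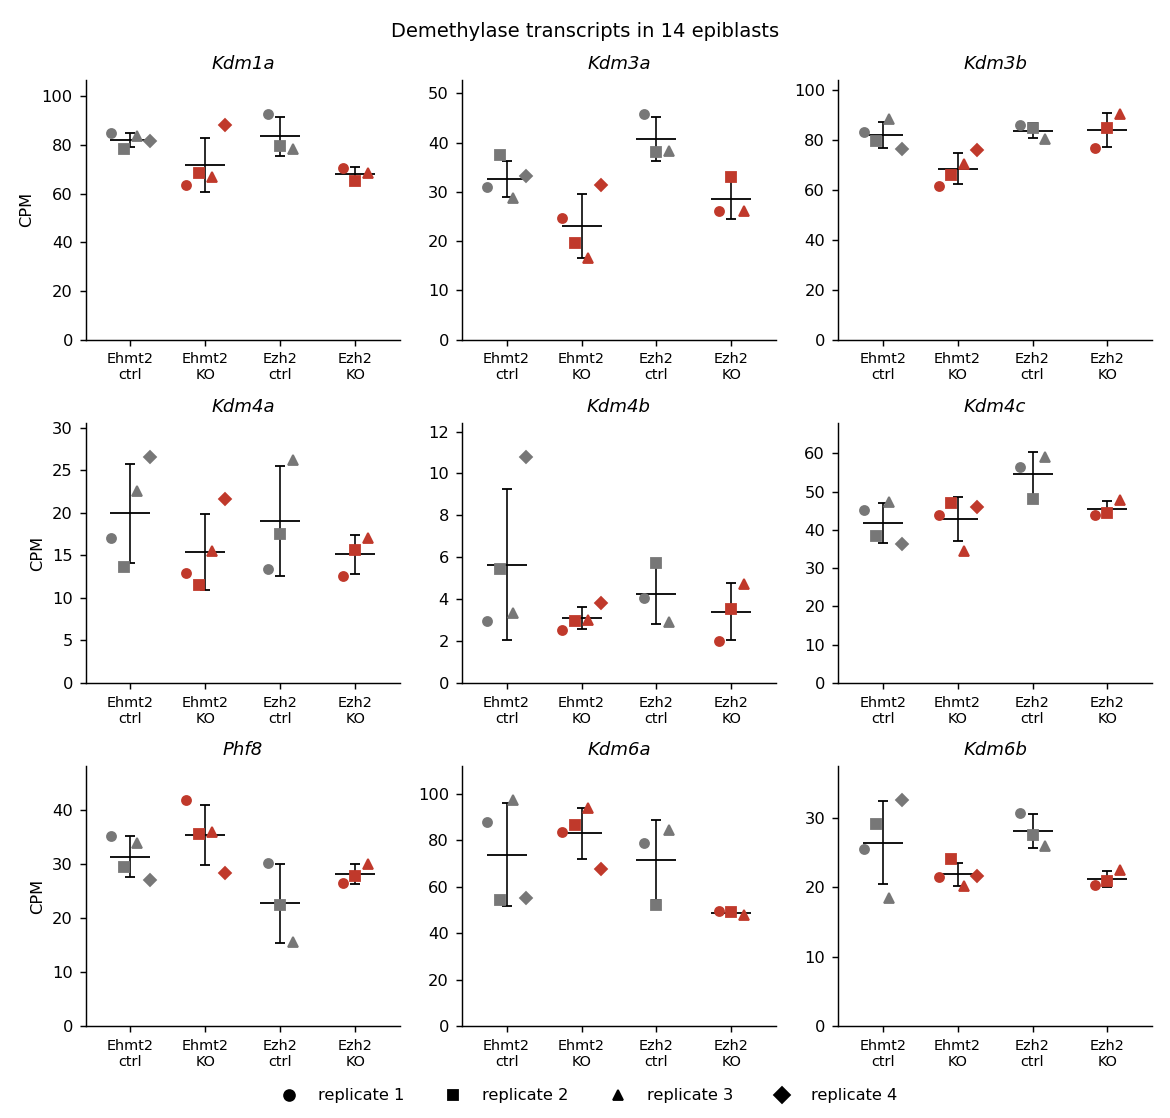
CPM of the 9 demethylase transcripts (linear axes from 0) in each of the 14 epiblasts, by cross and genotype (gray, control; red, knockout; the symbol gives the replicate number), with a bar at the mean and whiskers of 1 SD (n = 4 in the Ehmt2 groups, n = 3 in the Ezh2 groups). Ehmt2 knockout 4 sits apart from knockouts 1 to 3 for Kdm1a (88.3 CPM) and Kdm3a (31.3 CPM), and the 3 Ezh2 knockouts lie below their controls for Kdm1a, Kdm3a, Kdm4c, Kdm6a and Kdm6b.

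KDM6A and KDM6B, also called UTX and JMJD3, remove di- and trimethylation from H3K27, the mark of EZH2. Kdm6a (chrX:18162575-18279936, plus strand) is an X-linked gene known to escape X inactivation, and its Y-linked relative Uty encodes a protein with little demethylase activity. Because reads were trimmed to 40 nt, the stretch where the transcripts are most alike is shown. It lies in exon 13 of both genes, at chrX:18246986-18247075 on the plus strand for Kdm6a and at chrY:1169157-1169246 on the minus strand for Uty. The 2 mismatches within 90 coding bases are in capitals.
Kdm6a: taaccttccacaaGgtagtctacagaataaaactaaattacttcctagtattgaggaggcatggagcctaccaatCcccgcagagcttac
Uty: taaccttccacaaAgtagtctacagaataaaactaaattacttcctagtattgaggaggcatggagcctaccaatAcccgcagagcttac
Over 3619 aligned coding bases the genes were identical at 82.9%, with a longest identical run of 61 bases. Of 5896 windows of 40 bases in the Kdm6a transcript, 37 were shared with Uty without a mismatch (0.628%). Windows alike but for mismatches were not counted, and the share of reads that could not be placed was not measured.

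Kdm6a was at 88.1, 54.5, 97.3 and 55.2 CPM in Ehmt2 controls and at 83.8, 86.8, 94.0 and 67.9 CPM in knockouts. The groups overlapped, and controls 2 and 4 were the lowest. The log2 fold change was 0.18 ± 0.16 (edgeR adjusted p = 0.711). Among Ezh2 epiblasts Kdm6a was at 78.8, 52.1 and 84.4 CPM in controls and at 49.8, 49.3 and 47.8 CPM in knockouts. The knockouts lay close together, just below control 2 and far below controls 1 and 3. Here the log2 fold change was -0.55 ± 0.17 (edgeR adjusted p = 0.565). The 2 effects differed by 0.73 ± 0.25 on the log2 scale, with a 95% interval of 0.20 to 1.27, but this did not pass the threshold (edgeR adjusted p = 0.441, where 0.058% of 55200 transcripts were called). Kdm6a was the 1 member of 9 with an unadjusted p under 0.05 for that difference, against 3.8% of all transcripts with a positive and 4.53% with a negative difference.

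The level of Kdm6a ran with the RNA of 4 Y-linked genes, Ddx3y, Eif2s3y, Kdm5d and Uty. Their summed level was 54.8 to 76.5 CPM in 7 epiblasts and 0.130 to 0.567 CPM in the other 7. Kdm6a was at 47.8 to 67.9 CPM in the former and at 78.8 to 97.3 CPM in the latter, without overlap. The former were 2 of 4 Ehmt2 controls (2 and 4), 1 of 4 Ehmt2 knockouts (4), 1 of 3 Ezh2 controls (2) and all 3 Ezh2 knockouts. With 1 such control, the part of Y-linked RNA and that of the genotype in the Ezh2 cross rest on that library. Against the single Ezh2 control with Y-linked RNA, at 52.1 CPM, the 3 knockouts were at 47.8 to 49.8 CPM. With the Y-linked level as a covariate the log2 fold change of Kdm6a in the Ezh2 cross was -0.09 ± 0.18, and in the Ehmt2 cross it was 0.04 ± 0.13. No member had an unadjusted p under 0.05 in the Ezh2 cross in that fit. Its values were -0.42 ± 0.22 for Kdm3a, -0.38 ± 0.22 for Kdm6b and -0.22 ± 0.18 for Kdm1a. They too rest on the 1 control with Y-linked RNA, so the parts of Y-linked RNA and genotype cannot be told apart. These 3, like Kdm6a, were lower in all 3 knockouts than in every Ezh2 control, and so also than in control 2. Against that control, the knockouts were at 26.2 to 33.1 against 38.0 CPM for Kdm3a. They were at 20.3 to 22.5 against 27.4 CPM for Kdm6b and at 65.3 to 70.7 against 79.6 CPM for Kdm1a.

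Kdm6a shared this pattern with few genes. Of 15183 genes, 11 were lower in all 7 epiblasts with Y-linked RNA than in all 7 without, and the 4 on the X chromosome were Eif2s3x, Gm9159, Kdm5c and Kdm6a. Kdm5c, an X-linked H3K4 demethylase, was at 36.3 to 55.5 CPM in the former and at 62.8 to 94.4 CPM in the latter. Phf8, also X-linked, did not separate, at 22.4 to 30.1 CPM against 15.5 to 41.8 CPM. Beside Kdm6a, no other of the 9 members was among the 11. In the other direction, 20 of the 15183 genes were higher in all 7 epiblasts with Y-linked RNA than in all 7 without. Of those, 5 lie on the Y chromosome: Zfy1 and the 4 genes whose summed level made the split. Those 4 therefore say nothing further about it. The split was defined from the data, and no test was made on it.

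**Figure D4:**
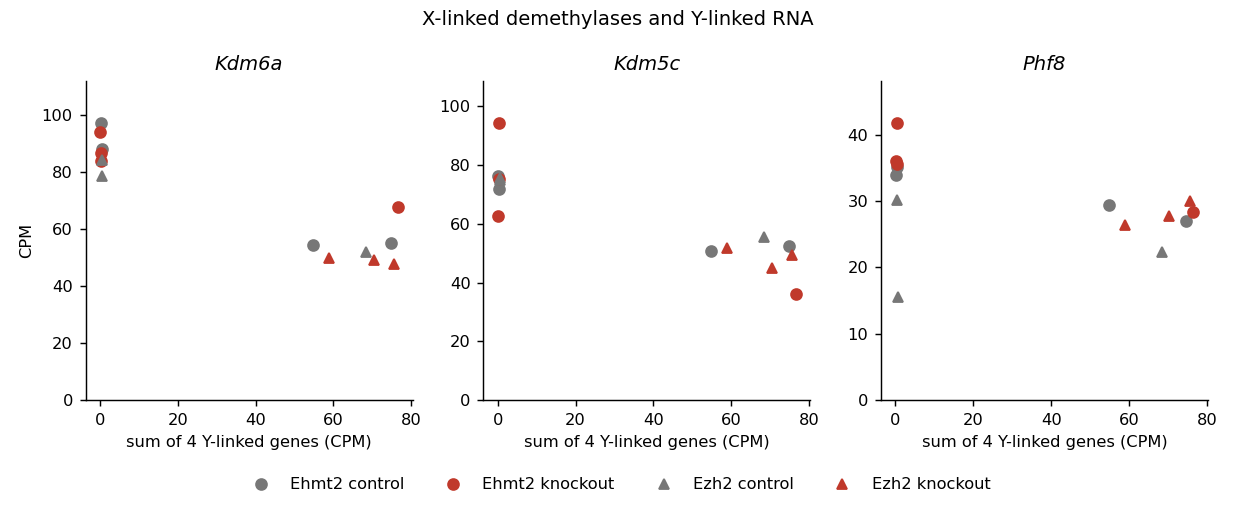
CPM of the X-linked demethylases Kdm6a, Kdm5c and Phf8 (vertical axes from 0) against the summed CPM of 4 Y-linked genes in each of the 14 epiblasts (circles, Ehmt2 cross; triangles, Ezh2 cross; gray, control; red, knockout). Kdm6a lies at 47.8 to 67.9 CPM in the 7 epiblasts on the right, which hold all 3 Ezh2 knockouts, and at 78.8 to 97.3 CPM in the 7 on the left, and Phf8 shows no such split.

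Kdm6b lies on the minus strand at chr11:69398508-69413675, and the antisense gene Kdm6bos shares 181 of its 6615 windows of 40 bases (2.74%). Without strand, reads of these 2 genes cannot be told apart there. Kdm6b was at 25.5, 29.1, 18.5 and 32.5 CPM in Ehmt2 controls and at 21.5, 24.0, 20.1 and 21.6 CPM in knockouts. The groups overlapped through control 3, and the knockouts were the tighter group. The log2 fold change was -0.26 ± 0.17 (edgeR adjusted p = 0.588). The Ezh2 controls were at 30.7, 27.4 and 25.9 CPM and the knockouts at 20.3, 20.8 and 22.5 CPM, without overlap. Their log2 fold change was -0.40 ± 0.14 (edgeR adjusted p = 0.599), and the difference between the crosses was 0.14, with a 95% interval of -0.34 to 0.62.

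The 9 genes had 47 listed transcripts, from 1 for Kdm3b to 11 for Phf8. None of the 45 tested in the Ehmt2 cross and none of the 44 tested in the Ezh2 cross was called by edgeR. At an unadjusted p under 0.05, 6 were lower in the Ehmt2 cross and 12 in the Ezh2 cross, and 0 were higher in either. Among all transcripts, 5.61% were lower and 6.15% higher in the Ehmt2 cross, and 2.97% lower and 4.05% higher in the Ezh2 cross. Isoforms of a gene share most of their exons and reads, so the counts of member isoforms are not independent of those above. All 9 isoforms of Kdm1a and all 4 of Kdm6a had negative log2 fold changes in the Ezh2 cross, and all 4 of Kdm6a had positive ones in the Ehmt2 cross.

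Each member was also matched with the non-member gene whose log2 level followed it most closely over the 14 epiblasts, among 15174 genes. The best match of Kdm6a was Eif2s3x (Pearson r = 0.95, Spearman rho = 0.80), over epiblasts that fall into the 2 sets with and without Y-linked RNA. Kdm4c was closest to Rest (r = 0.93, rho = 0.93), Kdm1a to Atad2 (r = 0.92, rho = 0.88) and Kdm3b to Cyfip2 (r = 0.90, rho = 0.85). Kdm4a matched Ubn2 (r = 0.90), Kdm4b C330021F23Rik (r = 0.89), Phf8 5031439G07Rik (r = 0.86), Kdm3a Zfp395 (r = 0.85) and Kdm6b Scrt2 (r = 0.84). Without the replicate 4 pair the r of Kdm4b and its match was 0.74, and the others stayed between 0.84 and 0.96. All points share their library and its scaling, and each r is the highest of many.

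Of 18 further demethylases and JmjC genes, 15 were tested in the Ehmt2 cross and none was called by edgeR or DESeq2, with 1 lower and 0 higher at an unadjusted p under 0.05 (Hr, log2 fold change -1.65 ± 0.70, at most 1.81 CPM). Their median log2 fold change was 0.04. Of the 18, 17 were tested in the Ezh2 cross, none was called by edgeR, and 5 were lower and 0 higher at an unadjusted p under 0.05, with a median of -0.12. Among all transcripts at that p, 5.61% were lower and 6.15% higher in the Ehmt2 cross. In the Ezh2 cross 2.97% were lower and 4.05% higher. Kdm5b, an H3K4 demethylase, was at 221, 196 and 199 CPM in Ezh2 controls and at 125, 132 and 149 CPM in knockouts. The groups did not overlap, with a log2 fold change of -0.60 ± 0.11 (edgeR adjusted p = 0.266, DESeq2 adjusted p = 0.00123). Kdm7a, which removes methyl groups from H3K9 and H3K27, was at 32.3, 25.6 and 22.7 CPM in controls and at 17.6, 15.5 and 16.8 CPM in knockouts. Its log2 fold change was -0.69 ± 0.17 (edgeR adjusted p = 0.430, DESeq2 adjusted p = 0.0397). Many more transcripts were called by DESeq2 than by edgeR in this cross. Kdm5c (-0.49 ± 0.14) and Jarid2, a JmjC protein of the Polycomb complex without enzymatic activity (-0.32 ± 0.12), came next.

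Partners of the erasers gave no edgeR call in either cross, and DESeq2 called 1 in each, Hdac1 in the Ehmt2 cross and Ncoa6 in the Ezh2 cross. Among all transcripts, too, DESeq2 called many more than edgeR in both crosses. Of 11 genes of LSD1 corepressor complexes, 4 were lower and 0 higher at an unadjusted p under 0.05 in the Ehmt2 cross (median log2 fold change -0.12), and 1 was lower and 1 higher in the Ezh2 cross (median -0.11). Among all transcripts at that p, 5.61% were lower and 6.15% higher in the Ehmt2 cross. In the Ezh2 cross 2.97% were lower and 4.05% higher. The histone deacetylase Hdac1 was at 210 to 256 CPM in Ehmt2 controls and at 147 to 179 CPM in knockouts, without overlap (log2 fold change -0.45 ± 0.10, edgeR adjusted p = 0.0816). The corepressor Rcor2 (-0.45 ± 0.14) and Phf21a (-0.57 ± 0.18) were also among the genes with the smallest p. The smallest p in the Ezh2 cross went to Hdac2 (-0.33 ± 0.11) and Zmym3 (0.74 ± 0.28). Of 9 genes of the complex that holds KDM6A and H3K4 methyltransferases, 2 were higher and 0 lower at an unadjusted p under 0.05 in the Ehmt2 cross (median log2 fold change -0.06), and 1 was higher and 0 lower in the Ezh2 cross (median 0.04). Ncoa6, a subunit of that complex, had log2 fold changes of 0.40 ± 0.15 and 0.70 ± 0.16 in the 2 crosses (edgeR adjusted p = 0.297 and 0.404).

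Among the opposing writers, only the deleted gene of each cross was called by edgeR or by DESeq2, of 6 H3K9 methyltransferases and 4 H3K27 methyltransferase genes. Setdb1, which trimethylates H3K9, had a log2 fold change of -0.33 ± 0.12 in the Ezh2 cross. Eed and Suz12, core subunits of the complex of EZH2, had values of -0.45 ± 0.16 and -0.19 ± 0.12 there, and Suz12 of 0.32 ± 0.13 in the Ehmt2 cross. None of these 4 values passed the threshold.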

How the data were processed

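The authors trimmed reads to 40 nt, removed adapters, aligned them with TopHat2 to GRCm38 and counted them per Ensembl transcript with HTSeq, and the deposited values are raw counts, 1 file per epiblast. Files list no count below 1, so an absent transcript was set to 0. Whether strand was used is not given in the sources used here. Of 72516 transcripts, 70021 (96.6%) were matched to GENCODE vM21. The members and all gene lists were chosen with earlier results of these data known. Named genes were the members, the label checks, from each list up to 4 genes with the smallest p per cross, and the closest match of each member. Gm9159 and Zfy1 were named after their values were seen. Groups come from the genotype labels. Each cross had fewer litters than epiblasts, so some epiblasts shared a litter. Which ones did is not given in the sources used here, and p-values measure the spread between these epiblasts.

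Each cross was fitted by itself with edgeR 4.0.16 (filterByExpr, TMM, glmQLFit, glmQLFTest), the Ehmt2 cross with a term for the replicate 4 pair, and the difference between crosses over all 14 epiblasts. Calls needed a Benjamini-Hochberg adjusted p under 0.05 over all transcripts tested. The limit of 1.4 on the log2 scale, also used in the study, left 246 of 330 calls in the Ehmt2 cross. Fold changes carry SE and 95% intervals of the fit. The exact permutation tests were two-sided on log2(CPM + 0.5). Alternatives were DESeq2 1.42.0, its size factors, no filter, 1 transcript per gene, the replicate block, covariates for Y-linked and extraembryonic ectoderm RNA, and leaving out epiblasts. The code was tested on simulated counts. Intervals and spreads rest on amplified cDNA without molecular identifiers. Promoters are from RefSeq. R 4.3.3 and Python 3.11.15 were used. Xist and protein sequences were not analysed here, nor were the ChIP-seq and bisulfite samples.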

Additional observations from a re-analysis of the deposited data

How the results depend on the processing

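No member was called under any of 17 alternatives for the Ehmt2 cross, 13 for the Ezh2 cross and 5 for the difference between the crosses, in edgeR or DESeq2, and the lowest adjusted p of any member was 0.0926, 0.147 and 0.207. The count of all transcripts called moved far more. In the Ehmt2 cross it was 330, against 1541 with DESeq2, 646 without a filter, 185 with 1 transcript per gene, 118 with the replicate block, 105 with the Y-linked covariate, 808 with the extraembryonic ectoderm covariate, 52 without the term for the replicate 4 pair and 573 without that pair. Leaving out 1 epiblast gave 104 to 591, the most without control 4 or knockout 4 and the fewest without control 3. In the Ezh2 cross it was 6, against 330 with DESeq2, 30 without a filter, 10 with the replicate block and 0 with 1 transcript per gene or either covariate, and leaving out 1 epiblast gave 0 (each knockout) to 28 (control 2). For the difference it was 32, against 343 with DESeq2, 68 without a filter, 20 with 1 transcript per gene, 9 without the pair's term and 23 without the pair. Without Ezh2 control 2, the one control there with Y-linked RNA, Kdm5d and Uty were called higher by edgeR.

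The sign of a member's value turned under some settings. In the Ehmt2 cross Kdm4c had a log2 fold change of -0.061 without the replicate 4 pair and -0.062 to 0.15 with 1 epiblast left out, and Kdm1a 0.030 with the extraembryonic ectoderm covariate. In the Ezh2 cross Kdm3b had -0.010 with 1 transcript per gene, -0.016 with the Y-linked covariate and -0.052 to 0.069 with 1 epiblast left out, and with the extraembryonic ectoderm covariate Kdm4a had 0.0027 and Kdm4b 0.10. For the difference, Kdm1a had -0.025 without the pair and Kdm3a 0.014 without its term. The cause was not tested. With library sizes from 1 transcript per gene, 2 members instead of 1 reached the smallest exact permutation p in the Ehmt2 cross (Kdm3a joined Kdm3b). Labels were also exchanged only within the 2 comparison sets, an alternative chosen after seeing the data. There 40 splits allow no exact p below 0.05, so 0 members could be under it. Kdm3a, Kdm3b and Phf8 reached that smallest exact p of 0.05, Kdm3a and Kdm3b with lower and Phf8 with higher levels in knockouts. The order of the 9 levels was kept with those library sizes.

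In their deviations from the group means, controls and knockouts of the same number correlated at 0.06 to 0.42 (mean 0.20) in the Ehmt2 cross. Those of different numbers gave -0.28 to 0.20 (mean -0.05). The value of 0.42 was that of the replicate 4 pair, which has its own term. In the Ezh2 cross the same number gave -0.18 to 0.23 (mean 0.03) and different numbers -0.29 to 0.26 (mean -0.01). The ranges overlapped in both crosses, and the numbers were not taken as pairs in the main fits. With the replicate block no member was called. The coding transcript of each member was the one already used, so that alternative gave no other value. Kdm4b, with 64 to 575 counts, is the member most limited by depth, and 3 against 3 epiblasts cannot pass 0.1 in an exact test.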
